A study of Mus musculus with 2 samples.

Results

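Endolymph, a potassium-rich fluid of the inner ear, depends on a set of ion transport genes. Here 9 of them were read in sorted cells of the mouse otocyst, the epithelial vesicle from which the inner ear forms. The 9 genes are Slc26a4, Slc12a2, Kcnq1, Kcne1, Kcnj10, Bsnd, Atp6v1b1, Atp6v0a4 and Atp1b1. A probe set, a group of probes that reads 1 or more transcripts, was taken for a gene when the platform's annotation named that gene alone. This gave 16 probe sets for the 9 genes, out of 18194 genes named on the array.

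Cells came from otocysts of embryos at embryonic stage E10.5, heterozygous for the Tg(ETAR-EGFP)14Imeg allele, so both populations carry the transgene. After trypsin digestion, otocyst cells were sorted by EGFP fluorescence into an EGFP-positive and an EGFP-negative population, named positive and negative cells from here on, and each was measured on 1 Affymetrix array. Per the labels, the dorsolateral otocyst lacks EGFP, while most EGFP lies in the ventral and dorsomedial otocyst. EGFP reports the activity of the transgene, and the number of embryos behind each sort is not stated in the labels used here. With 1 array in each group there is no replicate, no p-value is given, and every difference describes these 2 arrays.

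In the mature inner ear, marginal cells of the stria vascularis and vestibular dark cells take up potassium from their basal side and release it into endolymph through an apical channel. Uptake is driven by the sodium pump and the sodium-potassium-chloride cotransporter, and chloride leaves again through channels that need the barttin subunit. The endolymphatic duct and sac, which grow out of the dorsomedial otocyst, use pendrin and a proton pump to exchange anions and protons with the fluid. Loss of several of these genes causes deafness.

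At E10.5, 2 of the 9 genes gave a clear signal, Slc12a2 and Atp1b1. Slc12a2 was close to equal in both populations, and Atp1b1 was 2.07-fold higher in positive cells. Slc26a4, Kcnq1 and Kcnj10 had signals of at most 1.22 times the floor, and Kcne1, Bsnd, Atp6v1b1 and Atp6v0a4 were below it in both arrays. The floor is the signal under which a probe set is not told apart from background here. It was set at the 40th percentile of each array, 10.4 in the positive and 12.4 in the negative array. The highest bacterial control probe set without evident signal, meaning under 20 in both arrays, reached 12.3 and 9.0. That choice of controls caps the value, so it is no independent check of the floor.

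Of the 9 genes, 5 were above the floor in at least 1 array, against 73.4% of all named genes. At a stricter floor, the 60th percentile of each array (33.3 and 37.5), only Slc12a2 and Atp1b1 of the 9 were above it. A signal under the floor does not show that a gene is silent, only that it was not detectable here. In RNA from many cells, fewer cells of a type and less RNA per cell cannot be told apart.

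**Figure D1:**
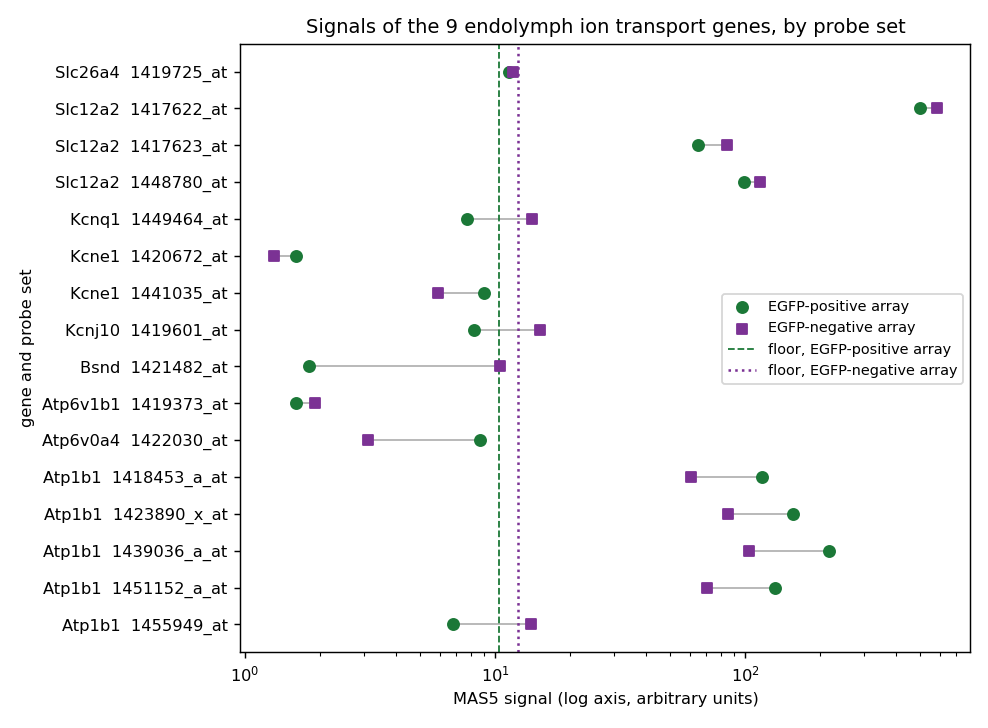
MAS5 signal (log axis) of each of the 16 probe sets of the 9 genes, with 1 point per array, circles for EGFP-positive and squares for EGFP-negative cells, and the floor of each array as a dashed or dotted line. The Slc12a2 probe sets and 4 of the 5 Atp1b1 probe sets lie well right of both floors, from 60.6 to 586.8, and all other points lie at or under 15.1.

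Promoters are shown for 3 genes, chosen after their values were seen, as examples of a clearly measured sodium pump gene and of pendrin and proton pump genes that were not clearly measured. Each line gives the 250 bases before the start site in RefSeq, 5′ to 3′ on the strand of the gene, on the GRCm38.p6 build. The windows are chr1:164458356-164458605 (minus strand) for Atp1b1, chr12:31559985-31560234 (minus strand) for Slc26a4 and chr6:83742767-83743016 (plus strand) for Atp6v1b1. Capitals mark matches on either strand to the CCAAT box (CCAAT), the GC box (GGGCGG), the TATA box (TATAAA) and the forkhead motif (TGTTTAC), the last chosen because the forkhead factor Foxi1 is known to act on pendrin and proton pump genes.
Atp1b1: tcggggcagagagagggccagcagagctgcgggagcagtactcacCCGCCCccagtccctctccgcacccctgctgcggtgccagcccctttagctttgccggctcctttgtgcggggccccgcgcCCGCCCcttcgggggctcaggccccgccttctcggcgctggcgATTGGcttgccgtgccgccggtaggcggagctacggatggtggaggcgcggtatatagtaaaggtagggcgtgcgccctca
Slc26a4: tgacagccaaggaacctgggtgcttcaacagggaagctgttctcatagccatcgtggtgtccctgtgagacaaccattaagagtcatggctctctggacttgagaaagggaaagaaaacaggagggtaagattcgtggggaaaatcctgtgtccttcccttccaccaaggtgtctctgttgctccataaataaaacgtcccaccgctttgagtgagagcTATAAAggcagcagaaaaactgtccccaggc
Atp6v1b1: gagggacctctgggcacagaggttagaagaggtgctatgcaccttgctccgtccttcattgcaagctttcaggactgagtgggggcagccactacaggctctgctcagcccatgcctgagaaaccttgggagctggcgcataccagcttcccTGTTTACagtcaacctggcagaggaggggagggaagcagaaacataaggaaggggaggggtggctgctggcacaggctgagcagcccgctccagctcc

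The Atp1b1 window holds GC boxes beginning 205 and 124 bases before the start and a CCAAT box beginning 81 bases before it. The Slc26a4 window holds a TATA box beginning 31 bases before the start, and the Atp6v1b1 window holds a forkhead motif 98 bases before it. Among 32851 promoters of the same length, 32.7% held the GC box, 33.8% the CCAAT box, 12.4% the TATA box and 3.17% the forkhead motif. The window of Kcnj10, which was not clearly measured, holds the same kinds of motif as that of Atp1b1, with 2 GC boxes and 2 CCAAT boxes, and that of Atp6v0a4 holds none of the 4 motifs. The motifs do not overlap one another in these windows. A match is a run of letters and not a measured binding site.

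RefSeq windows are described for 5 of the 9 genes, after a filter by chromosome, and they differ in base composition. Slc12a2, the other clearly measured gene, is not among them. Atp1b1 has 70.4% G and C with 24 CpG dinucleotides, and Kcnj10 has 62.0% with 17. Slc26a4 has 49.6% with 4 CpG, Atp6v1b1 has 59.6% with 3 and Atp6v0a4 has 48.4% with 1. Among 14453 genes with a window, the share above the floor in at least 1 array was 36.0% where the window held fewer than 5 CpG and 92.5% where it held 20 or more. Where a gene had several windows, the one richest in CpG was used for these shares. Genes with 5 to 9 CpG were above the floor in 64.4% of cases and those with 10 to 19 in 88.0%. Atp6v1b1 and Atp6v0a4 lie in the class under 5 CpG with signals under the floor, and Slc26a4 lies in the same class with a signal just above the floor in positive cells. Kcnj10, in the class of 10 to 19, passed the floor only in negative cells and by 1.22 times, and Atp1b1, in the class of 20 or more, was clearly measured. These shares describe genes on the same 2 arrays, which are not independent replicates.

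**Figure D2:**
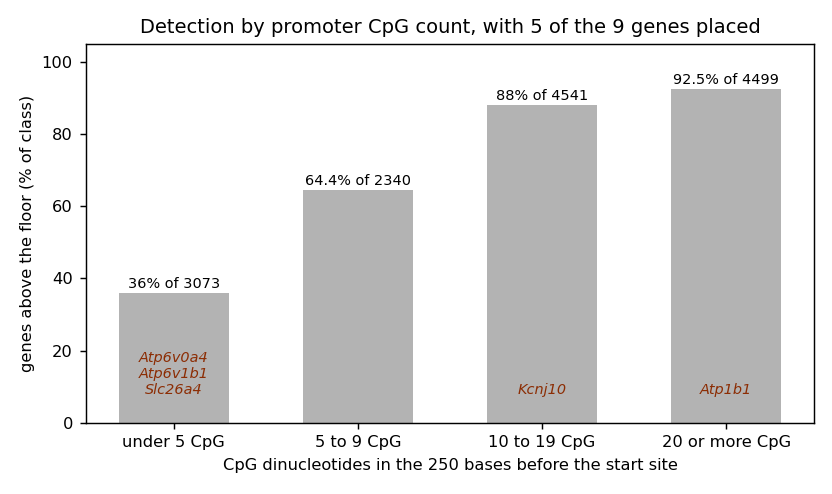
Bars give the percentage of genes whose signal passed the floor in 1 or both arrays (vertical axis, from 0). The 4 classes are of CpG count in the 250 bases before the start site, by the window richest in CpG of each gene. The 5 genes whose windows are described are written in their class, and Slc12a2 is not among them. The share is 36.0% in the class under 5 CpG, which holds Slc26a4, Atp6v1b1 and Atp6v0a4, and 92.5% in the class of 20 or more, which holds Atp1b1.

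Atp1b1 encodes the beta subunit that carries the sodium pump to the cell membrane. Its brightest probe set had a signal of 215.7 in positive and 104.0 in negative cells, a log2 ratio of 1.05, positive over negative. A further 3 probe sets read 116.4 against 60.6, 155.3 against 85.3 and 132.0 against 70.2, with log2 ratios of 0.94, 0.86 and 0.91. All 4 were thus higher in positive cells, but only the brightest reached 2-fold, the limit used here for a called gene. The fifth probe set went the other way near the floor, at 6.8 against 13.9.

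As a partial measure of technical error, the log2 ratio of probe sets of the same gene had an SD of 0.328 over 2764 genes of mean signal 50 to 200. The Atp1b1 ratio is larger than this SD, which leaves out any spread between embryos, sorts or arrays. Atp1b1 was the only one of the 5 genes above the floor that was called as higher in positive cells, where 2.9% of 13363 genes were called. None of the 5 was called as higher in negative cells, where 7.63% were. A single call among 5 genes is too few to set against that share. Of the 13363 genes, 346 had a higher ratio than Atp1b1.

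Genes of otic epithelium were higher in the same array as Atp1b1. Of 13 measured markers of that epithelium, 12 were at least 2-fold higher in positive cells and 1, Oc90, was not. Their summed signal was 12133 in positive and 5496 in negative cells, and their median log2 ratio was 1.41, above the 1.05 of Atp1b1. Centred on that median, the log2 ratio of Atp1b1 was -0.36, and with the hybridisation controls, transcripts added in fixed amounts, as the reference it was 0.78. Under these references every log2 ratio of the study is lower by 1.41 and by 0.27, so the directions given for all genes here hold relative to the scaling as deposited. The part of epithelial content in the Atp1b1 difference was not tested.

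Slc12a2 encodes the sodium-potassium-chloride cotransporter of the basolateral membrane. Its brightest probe set had a signal of 501.8 in positive and 586.8 in negative cells. Its other probe sets read 64.9 against 84.4 and 98.6 against 114.8. All 3 were slightly lower in positive cells, with log2 ratios of -0.23, -0.38 and -0.22. The value of the brightest lies within the SD of 0.249 between probe sets of the same gene, over 1926 genes of mean signal 200 or more. Centred on the otic epithelium markers, the log2 ratio of Slc12a2 was -1.64.

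**Figure D3:**
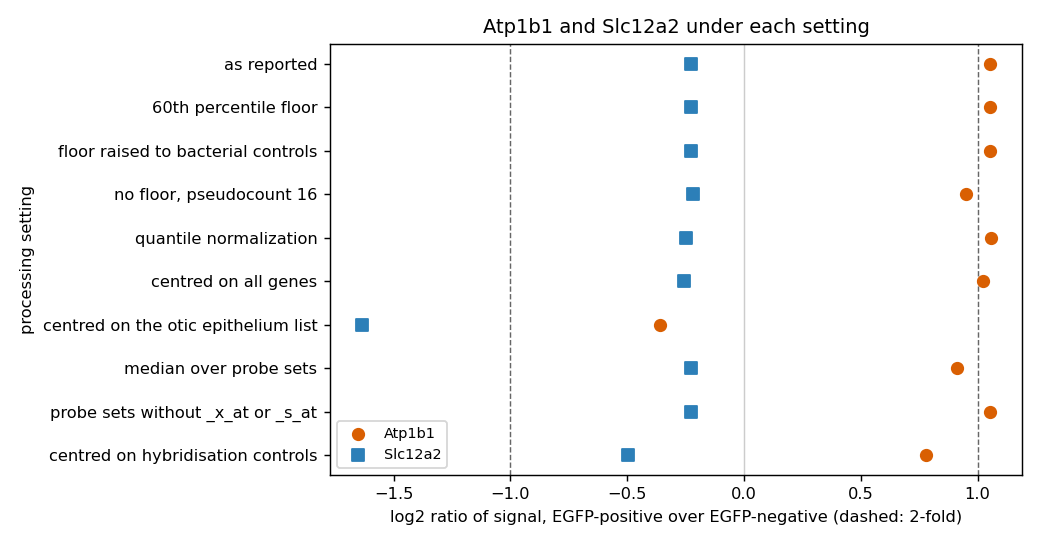
Log2 ratio of EGFP-positive over EGFP-negative signal (horizontal axis, dashed lines at 2-fold) for Atp1b1 (circles) and Slc12a2 (squares) under each processing setting (vertical axis). Atp1b1 runs from -0.36, where ratios are centred on the otic epithelium list, to 1.06, and Slc12a2 from -1.64 under that same setting to -0.22.

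The potassium secretion channel is formed by Kcnq1, its pore subunit, and Kcne1, its accessory subunit. Kcnq1 had a signal of 7.7 in positive and 14.0 in negative cells, above the floor only in the latter. The probe sets of Kcne1 read 9.0 and 1.6 in positive against 5.9 and 1.3 in negative cells, all under the floor. Kcnj10, the inwardly rectifying potassium channel needed for the endocochlear potential, in intermediate cells of the stria, read 8.2 against 15.1. Bsnd, which encodes barttin, read 1.8 in positive cells and 0.847 times the floor in negative cells, and so was under the floor in both arrays. No fold is given for these genes, because at least 1 signal of each is under the floor.

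In the array where Kcnq1 and Kcnj10 passed the floor, many markers of non-otic cells also had higher signals. The summed signal of 8 measured neural crest and glia markers was 1814 in positive and 1421 in negative cells, with 5 of them at least 2-fold higher in negative and 2, Erbb3 (1405 against 511.1) and Kit (266.6 against 103.3), in positive cells. Of 13 periotic mesenchyme markers, 10 were at least 2-fold higher in negative cells, with summed signals of 458.0 and 6617. The counts were 8 of 9 for erythroid cells (2498 and 14496), 10 of 10 for leukocytes (100.4 and 1527), 9 of 10 for endothelium (137.7 and 795.3) and 7 of 10 for hindbrain neuroepithelium (2374 and 4844). No marker of these lists was at a signal of 0. The part of these cells in the Kcnq1 and Kcnj10 signals was not tested.

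Pendrin and a proton pump are used in the endolymphatic duct and sac. Slc26a4, which encodes the anion exchanger pendrin, had a signal of 11.4 in positive and 11.8 in negative cells. The signals are nearly equal and straddle the floors. The positive one is under the highest bacterial control without evident signal in its array. Atp6v1b1, the B1 subunit of the cytosolic part of the proton pump, read 1.6 against 1.9. Atp6v0a4, the a4 subunit of its membrane part, read 8.7 against 3.1. Foxi1, the forkhead factor upstream of these genes in the endolymphatic sac, read 10.2 against 6.5, also under the floor in both arrays. The otocyst markers Gbx2 and Hmx3, by contrast, were clearly measured, Gbx2 at 580.3 against 79.1 and Hmx3 at 128.8 against 171.3.

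The other subunits of the proton pump, which acidifies organelles in every cell, were mostly well measured and close to equal. Of 21 measured subunits and accessory proteins, 19 were above the floor in both arrays and none differed by 2-fold. Their median log2 ratio was 0.02 against 0.00 over all genes. Of all 18194 named genes, 11682 were above the floor in both arrays. Of genes above it in at least 1 array, 2.9% and 7.63% were called as higher in positive and negative cells. Atp6v1b2, the widely expressed relative of Atp6v1b1, read 387.7 in positive and 454.9 in negative cells. Atp6v0a1 read 51.0 against 49.8 and Atp6v0a2 read 63.0 against 83.1, in contrast to Atp6v0a4, although 1 of the other probe sets of Atp6v0a1 had a log2 ratio of -1.29. The brightest were Atp6v1g1 (1688 against 1623), Atp6ap2 (1210 against 999.5) and Atp6v1f (1007 against 713.0). Besides Atp6v1b1 and Atp6v0a4, the 2 measured subunits under the floor in both arrays were Atp6v0d2 and Atp6v1c2, named after their values were seen.

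**Figure D4:**
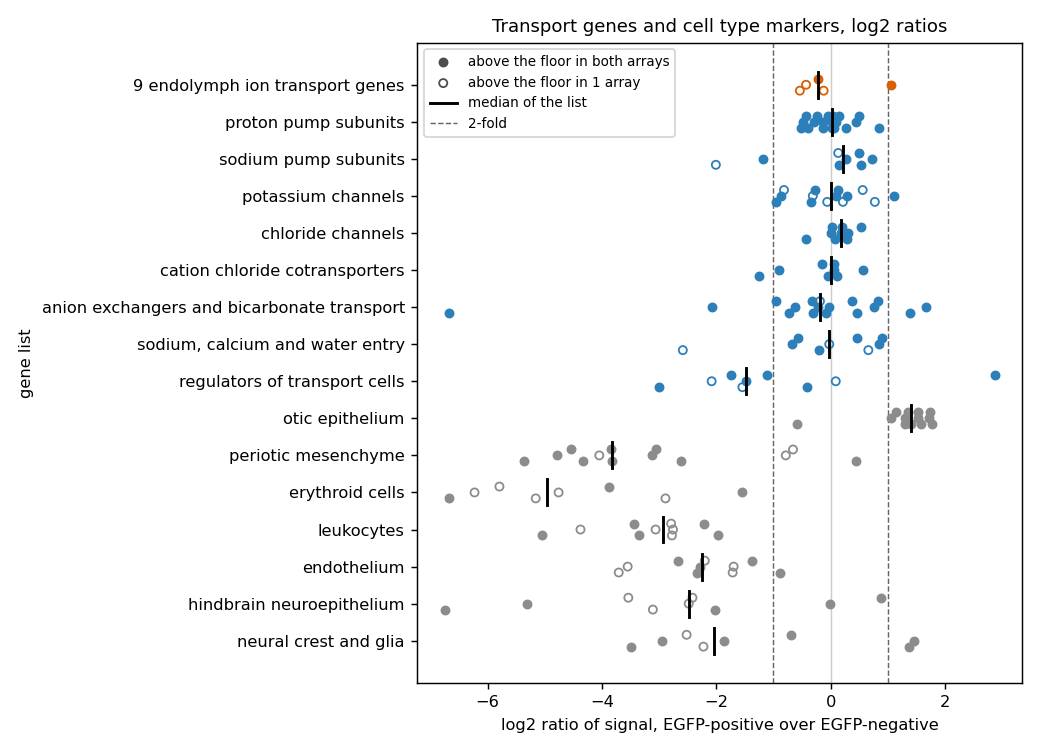
Log2 ratio of EGFP-positive over EGFP-negative signal (horizontal axis) for each gene above the floor in at least 1 array, by gene list (vertical axis), with filled points for genes above the floor in both arrays, open points for genes above it in 1, a black bar at the list median and dashed lines at 2-fold. The 5 measured endolymph genes lie between -0.54 and 1.05, the proton pump subunits cluster around 0.02, and the otic epithelium list has its median at 1.41.

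Among relatives of Atp1b1 and regulators of the sodium pump, most genes above the floor were within 2-fold. Atp1b3, another beta subunit, had a signal of 1089 in positive and 753.3 in negative cells, within 2-fold. Atp1b2, a beta subunit typical of glia, was 2.26-fold higher in negative cells at 41.6 against 18.4, though the second probe set reached only -0.82 on the log2 scale. Of the FXYD proteins, small regulators of the pump, Fxyd5 read 41.8 in negative against 8.9 in positive cells, and Fxyd6 (373.7 against 226.5) and Fxyd3 (128.6 against 106.5) were higher in positive cells by less than 2-fold. Beside the beta subunits, the 8 listed genes above the floor include FXYD regulators and Atp4a, a gene of a related pump. In all, 2 of these 8 genes were called as higher in negative cells and none in positive, with a median log2 ratio of 0.21. Over all genes above the floor, 7.63% and 2.9% were called in these directions, and 8 genes are too few to set against those shares.

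Of 25 measured potassium channel genes beside the members, 14 were above the floor, or 56.0% against 73.4% of all named genes. Of these, 1 was called, where 2.9% of all genes above the floor were called as higher in positive and 7.63% in negative cells. The called gene was Kcnk1, a potassium leak channel, at 434.2 in positive against 202.2 in negative cells. It was 2.15-fold higher, with both probe sets past 2-fold. Kcnj16, a partner of Kcnj10, read 21.2 against 5.4, above the floor only in positive cells. Kcne3 read 0.5 against 18.3, above it only in negative cells, and Kcne2 was under the floor in both at 2.8 against 6.3. The brightest channels within 2-fold were Kcnj11 (125.3 against 117.8), Kcnq3 (79.0 against 64.4) and Kcnk5 (29.4 against 37.5).

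The chloride channels listed here were mostly measured in both arrays. Of 12 on the array, 9 were above the floor and none differed by 2-fold, with a median log2 ratio of 0.18. Of all named genes, 73.4% were above the floor, and 2.9% and 7.63% of those were called as higher in positive and negative cells. Clcn5 read 1100 in positive against 968.3 in negative cells, Clcn3 417.8 against 336.5 and the scramblase Ano6 284.2 against 234.0.

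Most relatives and regulators of Slc12a2 were within 2-fold. Slc12a7, a potassium-chloride cotransporter, read 284.1 in positive and 262.5 in negative cells. The kinases that switch these transporters, Wnk1 (1009 against 1043) and Stk39 (271.3 against 182.9), were within 2-fold, though another probe set of Wnk1 had a log2 ratio of 0.75. Wnk4, also a kinase, was 2.37-fold higher in negative cells at 52.1 against 22.0. Slc12a5, the neuronal potassium-chloride cotransporter, named after its values were seen, read 29.8 in positive and 55.6 in negative cells, within 2-fold. Wnk4 was the only called gene of 8 above the floor, where 7.63% of all genes above the floor were called in that direction. The median log2 ratio of the list was 0.00.

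Anion exchangers and carbonic anhydrases, which supply bicarbonate to exchangers such as pendrin, included differences in both directions. Of 17 above the floor, 2 were called in each direction, with a median log2 ratio of -0.19. The shares over all genes above the floor were 2.9% in the positive and 7.63% in the negative direction. A list of 17 genes is too short to set against those shares. Car14, a membrane carbonic anhydrase, was 2.61-fold higher in positive cells at 555.2 against 212.8. Car13, a cytosolic one, was 3.19-fold higher there at 89.5 against 28.1, while its 3 probe sets ranged from 0.26 to 2.14 on the log2 scale. Car2, the cytosolic enzyme abundant in red cells, was 4.21-fold higher in negative cells at 1513 against 358.9, and Slc4a1, the red cell anion exchanger, read 1262 in negative against 12.3 in positive cells. Slc4a1 is also on the erythroid list, and the part of red cells in the Car2 difference was not tested. Slc4a2 (193.6 against 113.9), Car4 (86.5 against 168.5) and Slc26a2 (63.3 against 79.4) were within 2-fold, and Slc26a5, which encodes the hair cell motor prestin, was under the floor at 0.4 against 0.8.

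Of 16 measured genes for sodium, calcium and water entry, 9 were above the floor, against 73.4% of all named genes. Aqp3, a water and glycerol channel, read 62.4 in negative against 6.8 in positive cells. It was the only one called, where 7.63% of all genes above the floor were called in that direction. The calcium pump gene Atp2b1 (521.8 against 279.3) and the endolysosomal channel gene Mcoln3 (218.0 against 158.8) were higher in positive cells by less than 2-fold, though another probe set of Atp2b1 was past it at 1.06 on the log2 scale, and Aqp11 read 27.8 against 32.0. The median log2 ratio of the list was -0.02.

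Regulators of the cells that later hold these transporters included several 2-fold differences. Of 9 above the floor, 6 were at least 2-fold higher in negative cells and 1 in positive cells, with a median log2 ratio of -1.48. Over all genes above the floor, 7.63% and 2.9% were called in these directions. The list is short, however, and was drawn up with earlier results for Gbx2 and Hmx2 known. Pou3f4, a transcription factor of periotic mesenchyme, was 7.98-fold higher in negative cells at 104.6 against 13.1. Tbx18, also of that mesenchyme, was 2.79-fold higher (136.5 against 49.0), the kinase gene Sgk1 3.36-fold (132.4 against 39.4) and the homeobox gene Hmx2 2.16-fold (80.7 against 37.4). The glucocorticoid receptor gene Nr3c1 read 44.0 in negative against 0.9 in positive cells, the latter under the floor. Of its 6 probe sets, 4 were above the floor in an array, with log2 ratios from -2.08 to -0.63. Esrrb, which is needed for marginal cell identity, read 30.3 against 8.7 in the same direction, but its 3 probe sets ranged from -1.54 to 0.59 on the log2 scale. Gbx2, a gene of the dorsomedial otocyst, was 7.34-fold higher in positive cells, and Wnt2b read 13.2 against 8.9. Markers of periotic mesenchyme were higher in the same array as Pou3f4 and Tbx18, with a median log2 ratio of -3.83, and their part was not tested.

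Over all 8 lists of related genes, 93 of 136 measured genes were above the floor, or 68.4% against 73.4% of all named genes. Of these, 4 were at least 2-fold higher in positive cells and 12 in negative cells, and 77 were within 2-fold, where 2.9% and 7.63% of all genes above the floor were called. Their median log2 ratio was 0.00.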

How the data were processed

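The authors deposited linear intensities, the MAS5 signals of 45101 probe sets, and per the submitters' processing notes the software was MAS5 version 5.0. The mean after trimming 2% at each end was 100.0 in both arrays, so each had been scaled by a constant. The MAS5 settings are not given in the sources used here. MAS5 signals under the floor are dominated by background, and scaling to a common mean makes each ratio relative to the rest of the array.

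Gene names came from the platform annotation, with symbols updated through GRCm38.p6 RefSeq gene identifiers. A single gene was named by 34958 probe sets and several genes by 932, and 9211 are unnamed here. The probe set of highest mean signal stood for each gene, signals were raised to the floor, and log2 ratios of EGFP-positive over EGFP-negative were called at 2-fold. Genes under the floor in both arrays have no ratio, and some listed genes are not reported here. The number of arrays limits the precision. The text names all 9 genes, close relatives, and, of each of the 8 lists of related genes, every gene past 2-fold and the 3 brightest within it. The genes and lists were chosen with earlier results of these data known. Alternatives were another floor, scaling, probe set choice and fold limit. The procedure was tested on simulated data, where the planted differences were all larger than 2-fold and in genes well above the floor. That test therefore does not bear on signals near the floor or on ratios near 2-fold. Python 3.11.15, pandas 2.3.3 and numpy 2.4.6 were used.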

Additional observations from a re-analysis of the deposited data

How the results depend on the processing

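The 2-fold call of Atp1b1 sits at the limit. The count of called genes went from 1 to 0 with a pseudocount of 16 in place of a floor, with the median over probe sets, with a 3-fold limit, with ratios centred on the otic epithelium list or, an alternative added after seeing the data, on hybridisation controls. Centred on the otic epithelium list, the log2 ratio of Atp1b1 turned to -0.36, the median of the measured genes moved from -0.23 to -1.64, and 4 genes were then called as higher in EGFP-negative cells. That setting shifts every ratio by 1.41, so over all genes 18 and 11567 were called in the EGFP-positive and EGFP-negative directions in place of 388 and 1019. The hybridisation controls gave 213 and 1510, and quantile normalization 503 and 823. With the floor at the 60th percentile, 2 genes were above it in place of 5 and their median was 0.41, since only Slc12a2 and Atp1b1 then entered it. Of 41 alternative values for single genes, 35 moved by less than the SD between probe sets of a gene or not at all. A further 5 moved by more without a change of sign, and that of Atp1b1 moved by more and changed sign. The small ratio of Slc26a4 also changed sign within that SD, from -0.12 to 0.13 with quantile normalization. Several of the 35 could not move. A raised floor left Slc12a2 and Atp1b1 unchanged, and a median over probe sets cannot alter a gene with a single probe set. The count is therefore no measure of stability. No paired analysis was possible because each population has 1 array. Signal over background limits what can be said of the other 7 genes.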
